A study of Mus musculus with 10 samples.

Results

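The insulin-like growth factor (IGF) system was followed in spinal cord through 8 genes: the ligand Igf1, the receptors Igf1r and Igf2r, and the binding proteins Igfbp2, Igfbp3, Igfbp4, Igfbp5 and Igfbp6. They were chosen by symbol, through the Entrez Gene identifiers of the count files, and are 8 of 26301 identifiers. All 8 had counts in every library and passed the filter on low counts. RNA came from spinal cords of C57BL/6 mice, an inbred strain, and the labels name no treatment or allele. The 10 libraries comprise 3 from males and 3 from females aged 8 weeks, and 2 from each sex aged 4 weeks. The labels number the replicates without saying that each is a separate animal, so p-values measure the spread between these libraries, which may be technical.

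IGF1 is a secreted growth factor that signals through IGF1R, a receptor tyrosine kinase, and in the nervous system it acts on neuron survival, growth and the making of myelin. IGF2R has no kinase and carries IGF2 and mannose 6-phosphate-tagged enzymes to lysosomes. The binding proteins hold IGFs outside cells, where they can keep the ligands from the receptor or deliver them near it, and proteases release the ligands by cutting them.

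The promoters of 4 binding protein genes are shown, since Igfbp5 carried the age difference, its neighbour Igfbp2 did not, and Igfbp2, Igfbp3 and Igfbp6 varied together over the libraries. Igfbp2 and Igfbp5 are adjacent coding genes on chromosome 1 in the RefSeq table. Each sequence is the 250 bases before a RefSeq start in build GRCm38.p6, written 5′ to 3′ on the gene's strand, at chr1:72874866-72875115 on the minus strand for Igfbp5, chr1:72824230-72824479 on the plus strand for Igfbp2, chr11:7213924-7214173 on the minus strand for Igfbp3 and chr15:102143936-102144185 on the plus strand for Igfbp6. For Igfbp2 the upstream one of 2 listed starts is shown. Capitals mark matches, on either strand, to GGGCGG (a GC box), TATAAA (a core promoter box), GCCNNNGGC (an AP-2-like motif) and CACGTG (an E-box).
Igfbp5: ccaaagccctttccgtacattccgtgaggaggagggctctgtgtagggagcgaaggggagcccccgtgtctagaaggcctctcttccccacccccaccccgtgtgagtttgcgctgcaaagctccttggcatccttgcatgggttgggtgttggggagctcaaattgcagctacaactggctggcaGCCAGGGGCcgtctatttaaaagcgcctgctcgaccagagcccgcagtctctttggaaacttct
Igfbp2: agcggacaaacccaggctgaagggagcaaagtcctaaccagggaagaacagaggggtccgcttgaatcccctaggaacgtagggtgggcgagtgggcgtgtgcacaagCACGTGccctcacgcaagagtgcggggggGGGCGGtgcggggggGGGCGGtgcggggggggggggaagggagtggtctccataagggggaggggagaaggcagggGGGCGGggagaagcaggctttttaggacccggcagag
Igfbp3: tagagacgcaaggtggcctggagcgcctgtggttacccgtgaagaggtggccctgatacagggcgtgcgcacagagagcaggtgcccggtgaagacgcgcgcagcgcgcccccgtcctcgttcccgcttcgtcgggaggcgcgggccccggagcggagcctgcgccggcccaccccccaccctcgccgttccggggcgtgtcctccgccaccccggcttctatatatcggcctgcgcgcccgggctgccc
Igfbp6: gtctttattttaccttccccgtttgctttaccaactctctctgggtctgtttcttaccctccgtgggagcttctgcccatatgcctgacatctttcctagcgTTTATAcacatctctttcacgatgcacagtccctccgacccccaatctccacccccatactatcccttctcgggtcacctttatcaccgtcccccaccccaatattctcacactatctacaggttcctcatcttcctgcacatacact
The Igfbp5 window held 1 AP-2-like match, a motif present in 13.7% of 32851 RefSeq windows of this length. The Igfbp2 window held 3 GC boxes and 1 E-box, which 32.7% and 6.02% of windows hold at least once, while the window of its downstream start, not shown, held none of the 4 motifs. The Igfbp6 window held 1 match to TATAAA, a motif in 12.4% of windows, and the Igfbp3 window held none of the 4 motifs. The Igfbp6 match is in reverse orientation (TTTATA) and away from the start, so it is a match of letters only. The share of G and C was 58.8% for Igfbp5, 67.2% for Igfbp2, 73.2% for Igfbp3 and 49.6% for Igfbp6, beside a median of 52.4% over all windows, and 56.4% for the downstream start of Igfbp2. The neighbours Igfbp5 and Igfbp2 shared none of the matched motifs.

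A library held 8453559 to 11594610 counts, and levels are given as CPM, counts scaled to a common library size after TMM scaling, a correction for library composition. Markers of the cord's own cells were high in all libraries: summed over 8 genes each, astrocyte markers came to at least 6955 CPM and neuron markers to at least 3833 CPM. All 8 oligodendrocyte markers were lower at 8 weeks (median log2 fold change -0.77), with sums of 36817 to 43926 CPM at 8 weeks and 58782 to 62887 CPM at 4 weeks, and of 8 markers of newly forming oligodendrocytes 5 were lower and 1 higher. Transcripts of neighbouring tissue were also present and moved with age. The 12 skeletal muscle markers, led by Acta1, were all lower at 8 weeks, with summed levels of 38.3 to 138 CPM at 8 weeks and 458 to 1767 CPM at 4 weeks. Of 12 meningeal fibroblast markers 4 were lower at 8 weeks (Col1a1, Col1a2, Col3a1 and Lum). The other 8 were not called, and 4 markers had positive values, among them Slc22a6 (0.73, edgeR adjusted p = 0.371). The sums were 356 to 649 CPM at 8 weeks and 850 to 1709 CPM at 4 weeks, led by the collagen gene Col1a2, which bone also makes. Of the tested markers 8 of 8 for neutrophils and marrow were lower at 8 weeks (sums of 115 to 199 CPM at 8 weeks and 205 to 572 CPM at 4 weeks), as were 6 of 7 for fat cells (6.92 to 51.2 CPM at 8 weeks and 35.8 to 286 CPM at 4 weeks). So were 6 of 8 for cartilage and bone (31.4 to 50.9 CPM at 8 weeks and 50.02 to 97.2 CPM at 4 weeks) and 4 of 5 for erythroid cells (315 to 399 CPM at 8 weeks and 445 to 831 CPM at 4 weeks). What part these markers' cells play in the members' age values was not tested. Lung markers summed to 848 CPM in male 8-week library 2 and 97.5 CPM in library 3 of that group, and to 6.92 CPM or less elsewhere. Adrenal cortex markers summed to 122 and 91.5 CPM in the male 4-week libraries and to 11.0 CPM or less elsewhere. No marker of these lists was at 0 in all libraries.

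Levels of different genes were compared per length, as CPM per kilobase of merged exons from GENCODE M21, an annotation of a later build than the authors used. Igfbp2, a binding protein that the fetal brain and glia make in quantity, came first at 30.7 ± 7.95 CPM per kilobase (SD, n = 10). Igfbp5 had 26.2 ± 5.62 and Igfbp6, a binding protein that prefers IGF2, 23.2 ± 9.27 CPM per kilobase. These 3 were not separated from each other, since Igfbp2 exceeded Igfbp5 in 7 of 10 libraries and Igfbp5 exceeded Igfbp6 in 5 of 10. Igfbp4 had 12.1 ± 1.65 and Igfbp3, the main IGF carrier of blood, 9.0 ± 2.04 CPM per kilobase, and Igfbp6 exceeded Igfbp4 in 10 of 10 libraries. The receptors and the ligand were lowest, at 4.10 ± 0.41 CPM per kilobase for Igf2r, 3.11 ± 0.55 for Igf1r and 2.28 ± 0.64 for Igf1. Igf2r exceeded Igf1r in 10 of 10 libraries and Igf1r exceeded Igf1 in 8 of 10.

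**Figure D1:**
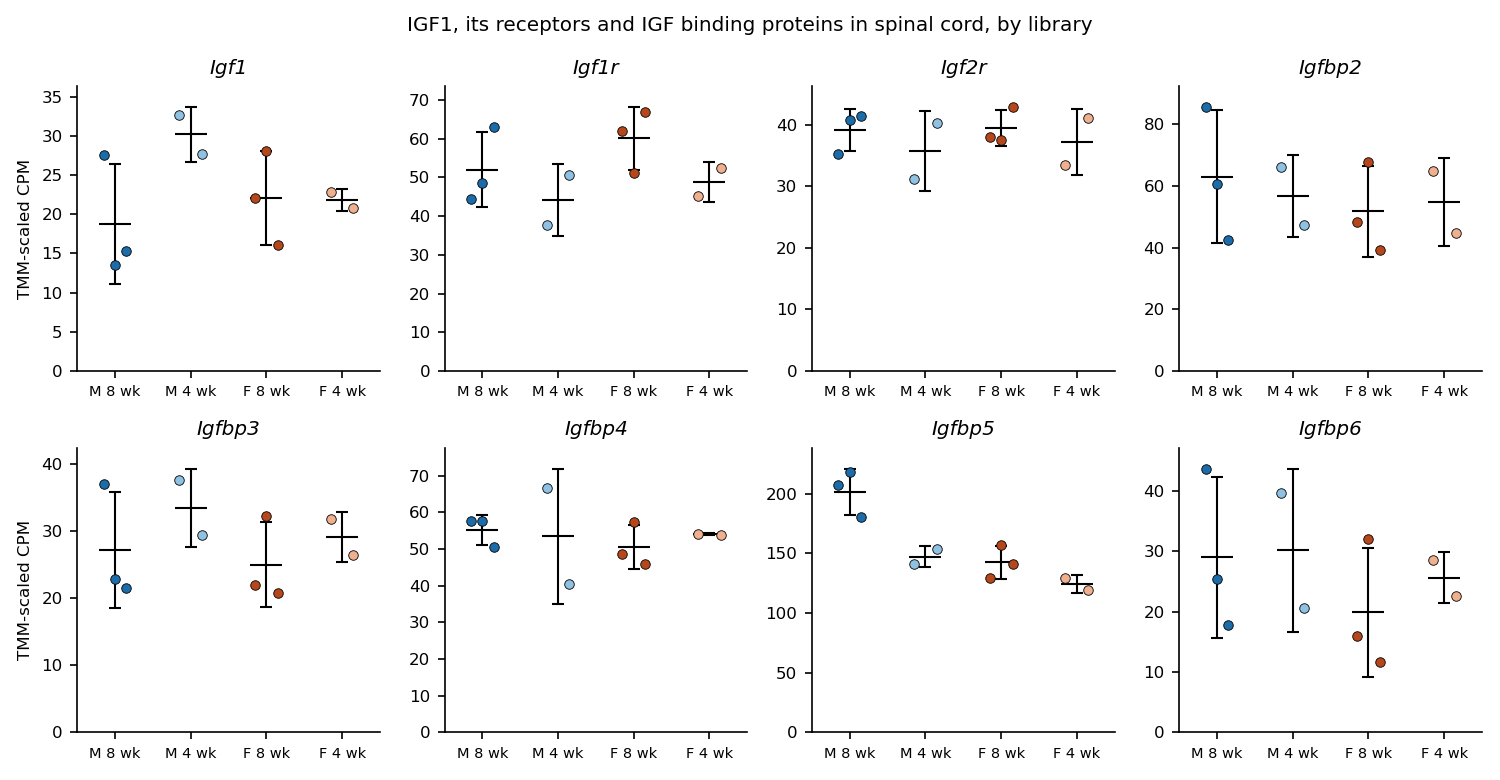
TMM-scaled CPM (vertical axis, from 0) of the 8 genes in each library (points), for male (M) and female (F) libraries at 8 and 4 weeks; black bars are group means and SD (n = 3 at 8 weeks, n = 2 at 4 weeks). The 3 male 8-week libraries stand highest for Igfbp5, between 180.3 and 218 CPM, while the age groups overlap for every gene over both sexes.

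The ligand Igf1 was measured at 27.6, 13.5 and 15.2 CPM in male 8-week libraries, against 32.6 and 27.7 CPM in male 4-week libraries. In females it had 22.0, 28.0 and 16.0 CPM at 8 weeks, against 22.8 and 20.8 CPM at 4 weeks. The male age groups did not overlap, with all 3 male 8-week libraries under both male 4-week libraries, as in 15.2% of tested genes, while the female groups overlapped. The male margin was narrow, 27.57 CPM in male 8-week library 1 against 27.71 CPM in male 4-week library 2. In CPM of total counts, without TMM scaling, the order turned, 27.74 against 27.43 CPM. Over both sexes the log2 fold change of 8 over 4 weeks was -0.35 (SE 0.20, 95% interval -0.78 to 0.09, edgeR adjusted p = 0.361), which did not pass the test. In males it was -0.68 (SE 0.27, edgeR adjusted p = 0.213) and in females 0.01 (SE 0.28, edgeR adjusted p = 0.993), and the difference between the sexes was -0.70 (SE 0.38, edgeR adjusted p = 0.970), a test that 0.0129% of tested genes passed. Without male 8-week library 1 the male value was -1.06 (edgeR adjusted p = 0.0377), so that 1 library decided the call. In bulk tissue, fewer cells of a type and less RNA per cell cannot be told apart.

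Igf1r, the signalling receptor, had 44.5, 48.5 and 62.9 CPM in male 8-week libraries, against 37.6 and 50.7 CPM in male 4-week libraries. In females it had 62.1, 51.1 and 67.0 CPM at 8 weeks, against 45.2 and 52.5 CPM at 4 weeks. Of the 6 libraries of 8 weeks 3 lay above every 4-week library and the others among them. The log2 fold change was 0.26 (SE 0.11, 95% interval 0.02 to 0.51) with an edgeR adjusted p of 0.197, so it did not pass the test. Igf2r, the lysosomal sorting receptor, ranged from 35.2 to 42.9 CPM at 8 weeks and from 31.1 to 41.0 CPM at 4 weeks, a log2 fold change of 0.10 (SE 0.09, edgeR adjusted p = 0.555). Igf2r overlaps the antisense gene Airn, and whether counting used strand is not given in the sources used here. Airn itself reached at most 3.86 CPM.

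Igfbp5, a binding protein that attaches to the extracellular matrix, was the 1 member that passed the test for age. It had 207, 218 and 180.3 CPM in male 8-week libraries, against 141 and 153 CPM in male 4-week libraries. In females it had 129, 157 and 141 CPM at 8 weeks, against 129 and 119 CPM at 4 weeks. The male groups did not overlap, and in females 2 of 3 libraries of 8 weeks lay above both of 4 weeks. Its mean was 172 ± 35.9 CPM at 8 weeks (SD, n = 6) and 136 ± 14.9 CPM at 4 weeks (SD, n = 4), a log2 fold change of 0.33 (SE 0.08, 95% interval 0.16 to 0.49, edgeR adjusted p = 0.0205). Of 8 members 1 rose and 0 fell at 8 weeks, where 6.62% of the 15540 tested genes were called in either direction and 1.61% were higher. The members' median log2 fold change was 0.01, beside 0.01 over all tested genes.

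The Igfbp5 difference was 0.45 in males (SE 0.10, edgeR adjusted p = 0.0299) and 0.20 in females (SE 0.10, edgeR adjusted p = 0.477). The difference between these was 0.26 (SE 0.14, edgeR adjusted p = 0.970), so a sex-specific change was not shown. In males 3.22% of tested genes were called (0.837% higher) and in females 1.45%, and 14.8% of tested genes had all male 8-week libraries above all male 4-week libraries. The call over both sexes was lost without male 4-week library 1 (0.28, edgeR adjusted p = 0.0684) and without female 8-week library 2 (0.30, edgeR adjusted p = 0.0513). It was also lost without the 2 libraries with lung transcripts (0.31, edgeR adjusted p = 0.0847) and without the 2 with adrenal transcripts (0.20, edgeR adjusted p = 0.371). The call in males was lost without male 4-week library 1 (0.40, edgeR adjusted p = 0.145) and without male 8-week library 1 (0.44, edgeR adjusted p = 0.0786) or 2 (0.40, edgeR adjusted p = 0.109). The age value without the libraries with adrenal transcripts rests on female libraries alone, since no male library of 4 weeks is left. Adding the muscle score to the model gave 0.41 (SE 0.20, edgeR adjusted p = 0.333), and with the meningeal score 0.36 (SE 0.10, edgeR adjusted p = 0.0772). The muscle score had an r of -0.93 with age, so the fit with it separates muscle and age poorly.

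**Figure D2:**
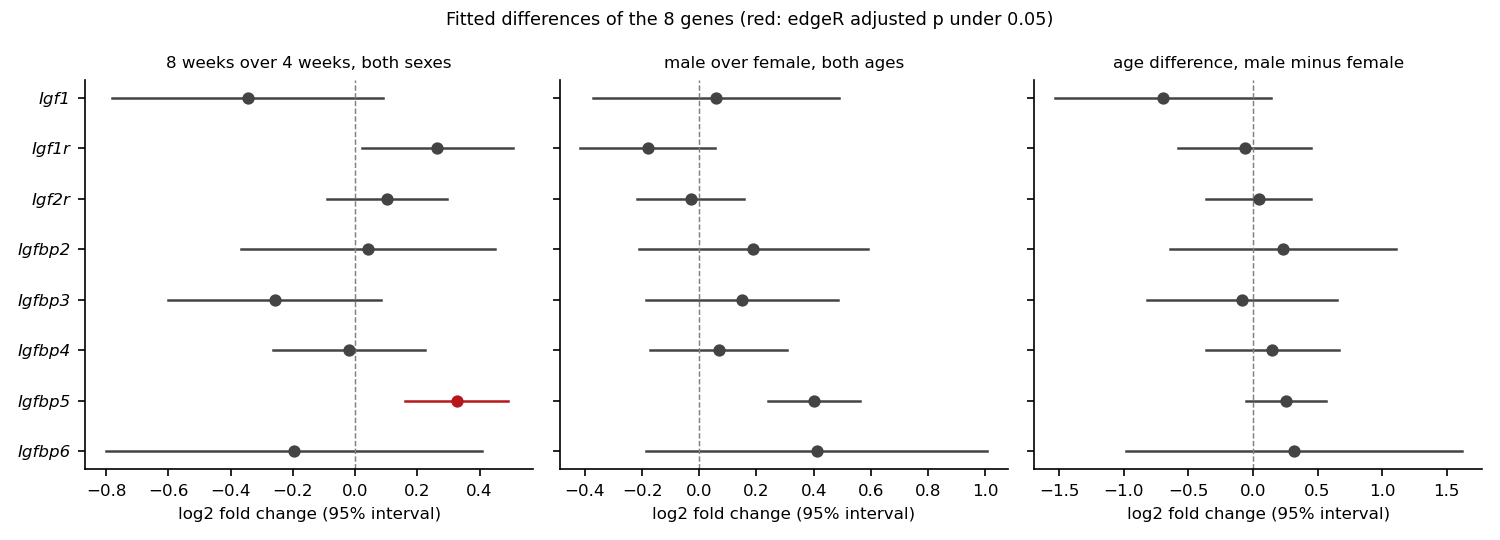
Fitted log2 fold changes (horizontal axis, points) with 95% intervals (lines) of the 8 genes, for 8 over 4 weeks, for male over female and for the difference between the male and female age changes. Red marks an edgeR adjusted p under 0.05, which Igfbp5 reached for age (0.33).

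The other 4 binding proteins did not pass the test for age. Igfbp2 had 85.5, 60.7 and 42.5 CPM in male 8-week libraries, against 66.1 and 47.2 CPM in male 4-week libraries, and in females 48.2, 67.9 and 39.1 CPM at 8 weeks, against 64.8 and 44.6 CPM at 4 weeks. Its libraries of 1 group spread more widely than its age groups differed, with a log2 fold change of 0.04 (SE 0.19, edgeR adjusted p = 0.932). Igfbp3 ranged from 20.8 to 37.0 CPM at 8 weeks and from 26.5 to 37.6 CPM at 4 weeks (-0.26, SE 0.16, edgeR adjusted p = 0.385). Igfbp4, a binding protein cut by the protease PAPP-A, ranged from 46.0 to 57.7 CPM at 8 weeks and from 40.5 to 66.5 CPM at 4 weeks (-0.02, SE 0.11, edgeR adjusted p = 0.950). The age groups overlapped for all 4 genes. Igfbp6 had 43.7, 25.5 and 17.8 CPM in male 8-week libraries, against 39.7 and 20.7 CPM in male 4-week libraries, and in females 16.0, 32.0 and 11.6 CPM at 8 weeks, against 28.6 and 22.6 CPM at 4 weeks. Its log2 fold change was -0.20 (SE 0.28, 95% interval -0.80 to 0.41, edgeR adjusted p = 0.745), so a change of this gene by the size seen for Igfbp5 lay within the interval.

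Between the sexes no member passed edgeR's test, where 0.0901% of tested genes did. At an unadjusted p under 0.05 there were 1143 genes, of which 1, Igfbp5, was a member. At 8 weeks its 180.3 to 218 CPM in males lay above 129 to 157 CPM in females, and at 4 weeks its 141 and 153 CPM in males lay above 129 and 119 CPM in females. The sexes did not overlap for it within either age, as was so, with males higher, for 7.12% of tested genes at 8 weeks and 15.6% at 4 weeks. The log2 fold change of male over female was 0.40 (SE 0.08, 95% interval 0.24 to 0.56, unadjusted p = 0.000105, edgeR adjusted p = 0.0858). DESeq2, another count test, gave the same value with an adjusted p of 0.000664, and edgeR without a filter on low counts 0.00537, both past the threshold. Without male 4-week library 1 the edgeR adjusted p was 0.0376, and without female 4-week library 1 it was 0.0460. Without each of the other 8 libraries in turn the call was not made, and over all 10 such fits the value lay between 0.35 and 0.45 and the edgeR adjusted p reached 0.299. Igfbp6 was 0.41 higher in males on the log2 scale, with a wider error (SE 0.28, edgeR adjusted p = 0.699), and the other 6 members lay between -0.18 (Igf1r) and 0.19 (Igfbp2). Tissue markers also differed by sex. Values were positive for 12 of 12 skeletal muscle (median 0.66), 6 of 6 Schwann cell (0.83) and 10 of 12 meningeal markers (0.58), none called. Of 5 adrenal markers 3 were called higher in males, while 1 of 7 fat cell markers was positive (-0.10). Their part in the Igfbp5 value was not tested.

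**Figure D3:**
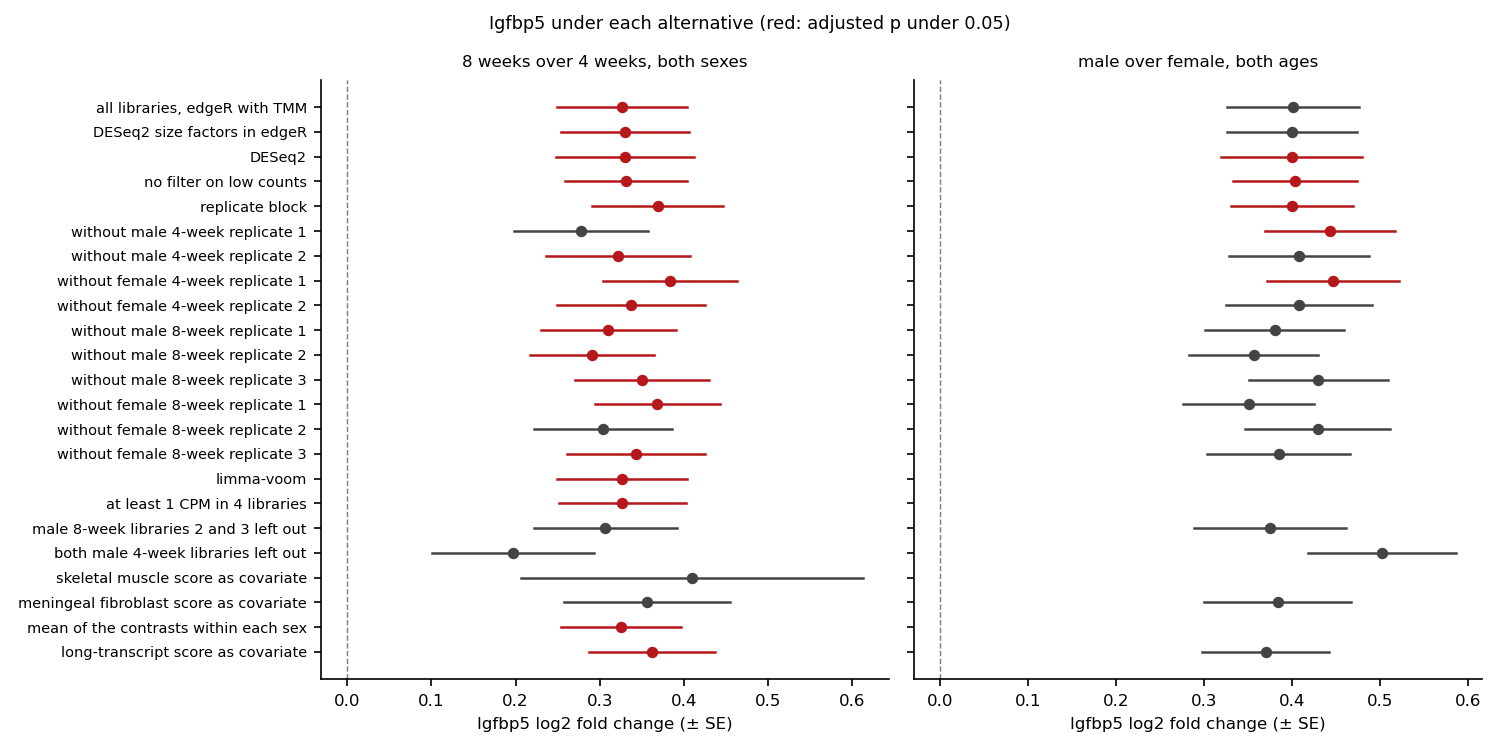
Igfbp5 log2 fold change (horizontal axis, points, lines ± SE) under each way of fitting, for 8 over 4 weeks and for male over female; red marks an adjusted p under 0.05, and a missing point was not run. The age value lies between 0.20 (no male 4-week libraries, females alone) and 0.41, and the sex value between 0.35 and 0.50.

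Several members varied together over the 10 libraries. Male 4-week library 1 had the lowest Igf1r and Igf2r and the highest Igf1, Igfbp3 and Igfbp4, while female 8-week library 3 had the highest Igf1r and Igf2r and the lowest Igfbp2, Igfbp3 and Igfbp6. As measures of likeness over 10 libraries that share age and tissue composition, Pearson's r of log2 CPM was 0.92 between Igfbp2 and Igfbp6, 0.90 between Igfbp3 and Igfbp6 and 0.81 between Igf1r and Igf2r. It was -0.90 between Igf1r and Igfbp6 and -0.87 between Igf1r and Igfbp3. With the means of the 4 groups removed, Igfbp2 and Igfbp6 had 0.96, and Igf1r and Igfbp6 -0.94. Igfbp5 had no r of log2 CPM beyond 0.41 in size with any other member, the highest being that with Igfbp2. With the group means removed it had 0.56 with Igfbp2, -0.52 with Igf1r, 0.47 with Igfbp6 and 0.46 with Igfbp3.

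These patterns were set beside 2 properties of the libraries. The long-transcript score is the mean centred log2 CPM of the 3566 tested genes with the longest merged exons (past 6922 bases) minus that of the 3567 with the shortest, members left out, and it ran from -0.38 to 0.20. The meningeal score is the mean centred log2 CPM of its 12 markers, from -0.57 to 0.77. The 2 scores had an r of -0.76 with each other, and with age the meningeal score had -0.61 and the long-transcript score 0.43. There were 16 relations of 8 genes with 2 scores, each tested by 2-sided permutation with 100000 resamples and adjusted by Benjamini-Hochberg over the 16. Permutation ran over all 10 libraries without regard to age and sex, so these p-values do not separate a score from age or sex. The share of all tested genes that would pass these tests was not measured, so a pass does not set the members apart from other genes. Igf1r (16791 bases) is of the long class that raises the long-transcript score, and Igfbp6 (1112 bases) of the short class that lowers it. A positive r for the first and a negative r for the second are thus partly built in, even with members left out of the score.

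Igf1r, whose merged exons span 16791 bases, had a Pearson's r of 0.93 with the long-transcript score (permutation p = 2e-05, adjusted 0.00032) and a Spearman's rho of 0.96 (permutation p = 3e-05, adjusted 0.00048). Without the 2 libraries farthest from the median score r was 0.88, and within the 6 libraries of 8 weeks 0.96. Igfbp6, with 1112 bases the shortest member, had r = -0.80 (permutation p = 0.00454, adjusted 0.0141) and rho = -0.90 (permutation p = 0.00093, adjusted 0.00744), with -0.87 without the farthest 2 and -0.88 within 8 weeks. Igf2r had r = 0.88 and rho = 0.83 (adjusted permutation p = 0.00724 and 0.0152), with 0.58 without the farthest 2 and 0.56 within 8 weeks. Igfbp2, Igfbp3 and Igfbp4 had r of -0.72 to -0.74 and rho of -0.79 to -0.87, all with adjusted permutation p under the threshold of 0.05, and r of -0.62 to -0.87 without the farthest 2 and -0.67 to -0.90 within 8 weeks. Igf1, with 9904 bases longer than Igf2r (9308), had r = -0.47 and rho = -0.53 (adjusted permutation p = 0.210 and 0.153). Its r was -0.16 without the farthest 2 and -0.21 within 8 weeks. The sign of r thus did not follow length in every member. Igfbp5 had r = -0.14 and rho = -0.30 (adjusted permutation p = 0.744 and 0.431), but -0.82 without the farthest 2 and -0.88 within 8 weeks. With the group means removed, and without a test, r was 0.89 for Igf1r, 0.91 for Igf2r and -0.46 for Igf1. For Igfbp2 to Igfbp6 in order it was -0.80, -0.67, -0.86, -0.27 and -0.76.

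With the meningeal score, Igfbp3 had r = 0.93 and rho = 0.88 (adjusted permutation p = 0.0016 and 0.00907), and r stayed at 0.86 without the farthest 2 and at 0.92 within 8 weeks. Igf1r had r = -0.85, Igfbp6 0.81, Igf1 0.80 and Igf2r -0.77, with rho of -0.82, 0.77, 0.72 and -0.71 and all adjusted permutation p under 0.05. Without the farthest 2 libraries these r were -0.70, 0.61, 0.68 and -0.50, and within 8 weeks -0.73, 0.86, 0.68 and -0.81. Igfbp2 (r = 0.62, rho = 0.59, adjusted permutation p = 0.0750 and 0.107), Igfbp4 (r = 0.44, rho = 0.43, adjusted permutation p = 0.235 and 0.249) and Igfbp5 (r = -0.02, rho = 0.10, adjusted permutation p = 0.966 and 0.786) did not pass. Without the farthest 2 libraries their r were 0.33, -0.095 and -0.30, and within 8 weeks 0.83, 0.64 and 0.51. With the group means removed, and without a test, r was 0.94 for Igf1, -0.73 for Igf1r and -0.77 for Igf2r. For Igfbp2 to Igfbp6 in order it was 0.82, 0.95, 0.58, 0.20 and 0.86. With the long-transcript score as a covariate, the age value of Igf1r was 0.10 (SE 0.07) in place of 0.26, and that of Igfbp5 was 0.36 (SE 0.07, edgeR adjusted p = 0.00509). What part tissue carry-over or transcript length plays in these relations was not tested.

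**Figure D4:**
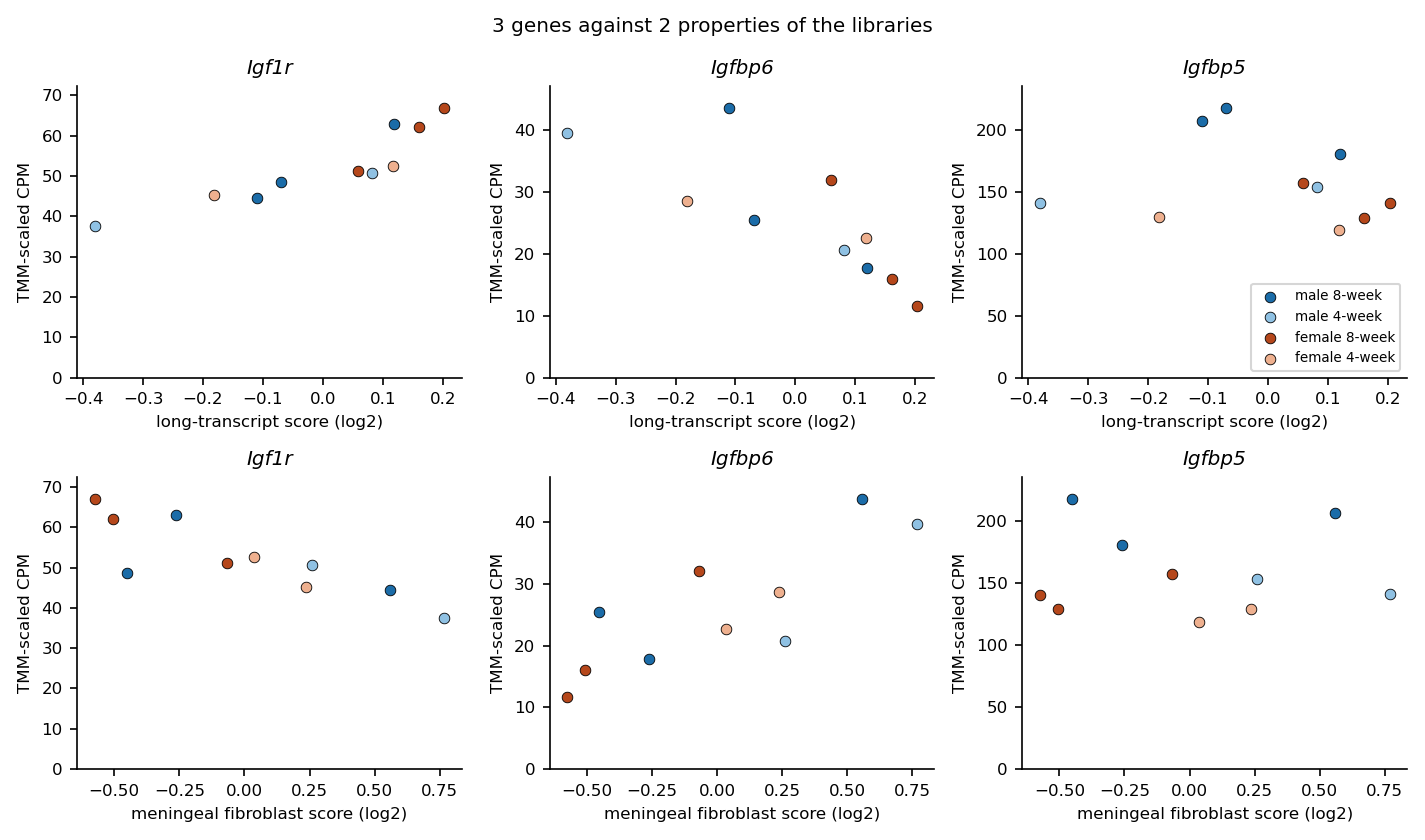
TMM-scaled CPM (vertical axes, from 0) of Igf1r, Igfbp6 and Igfbp5 in the 10 libraries, coloured by group, against the long-transcript score (top, log2) and the meningeal fibroblast score (bottom, log2). Igf1r rises with the long-transcript score (r = 0.93) and Igfbp6 falls with it (r = -0.80), while Igfbp5 separates the male 8-week libraries from the rest.

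The genes whose levels followed each member most closely differed between members. For Igf1r they included Lrp8, a reelin receptor, and Chd5, a chromatin remodeller of neurons (r = 0.98 and 0.97 over 10 libraries). For Igfbp2 they were Cst3, which encodes the protease inhibitor cystatin C (0.98), Septin4 (0.97) and Nbl1, a BMP antagonist (0.97). For Igfbp3 they included Apod, a lipid carrier (0.95), and Eef1a1, a translation elongation factor (0.95). For Igfbp5 they were Serpinb9, a granzyme B inhibitor (0.94), Errfi1, an inhibitor of the EGF receptor (0.94), and Gpt, alanine aminotransferase (0.93). Igf1 was most like Rnf13 (0.96), Igf2r most like the potassium channel gene Kcnh1 (0.97), Igfbp4 most like Timm17b (0.94) and Igfbp6 most like Dazap2 (0.97). With the group means removed, the 3 genes most like Igf1 included the other ligand Igf2 (0.97), and those most like Igfbp5 included Cd109 (0.97) and Calcrl, the receptor subunit for CGRP (0.95). These likenesses are among the highest of all genes compared over 10 libraries and carry no test.

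The wider pathway was read from 46 genes in 6 lists, of which 41 passed the filter, while Igfals, Igfbp1, Igfbpl1, Insrr and Igf2bp1 did not. For age 0 rose and 3 fell, where 5.01% of all tested genes fell, and the median log2 fold change was 0.02. Grb14, an adaptor that inhibits the insulin receptor, had 51.2, 54.8 and 54.7 CPM in male and 59.1, 59.0 and 52.4 CPM in female 8-week libraries, against 79.9 and 84.4 CPM in male and 80.6 and 71.1 CPM in female 4-week libraries. All 6 libraries of 8 weeks lay below all 4 of 4 weeks, as in 7.73% of tested genes for either direction. Its log2 fold change was -0.52 (SE 0.07, edgeR adjusted p = 0.000247), and it was called in males (-0.62, SE 0.08, edgeR adjusted p = 0.00269) and in females (-0.42, SE 0.09, edgeR adjusted p = 0.0357). With the muscle score as a covariate, 30 genes in all and no pathway gene were called, and Grb14 had -0.47 (SE 0.17, edgeR adjusted p = 0.218). That score had an r of -0.93 with age, so this fit separates muscle and age poorly.

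Igf2bp2, which binds Igf2 and other mRNAs, had 1.59 ± 0.21 CPM at 8 weeks (SD, n = 6) and 2.90 ± 0.22 CPM at 4 weeks (SD, n = 4), from 12 to 32 counts a library. It fell by 0.85 on the log2 scale (SE 0.18, edgeR adjusted p = 0.0105), and its age groups did not overlap. Adam12, a metalloprotease that cuts IGFBP3 and IGFBP5 and is also made by developing muscle, had 3.87 ± 1.04 CPM at 8 weeks (SD, n = 6) and 6.35 ± 0.63 CPM at 4 weeks (SD, n = 4). It fell by 0.74 (SE 0.17, edgeR adjusted p = 0.0182). Of its 6 libraries of 8 weeks 5 lay below all of 4 weeks. Adam12 lost the call without male 4-week library 1 (-0.67, edgeR adjusted p = 0.0546). Both genes lost it without the 2 libraries with lung transcripts (-0.87 and -0.61, edgeR adjusted p = 0.0593 for Igf2bp2 and 0.142 for Adam12) and without the 2 with adrenal transcripts (-0.90 and -0.38, edgeR adjusted p = 0.135 and 0.449). Without the libraries with adrenal transcripts these age values again rest on female libraries alone. With the meningeal score both genes also lost the call, at -0.80 for Igf2bp2 (SE 0.26, edgeR adjusted p = 0.138) and -0.81 for Adam12 (SE 0.24, edgeR adjusted p = 0.0958).

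**Figure D5:**
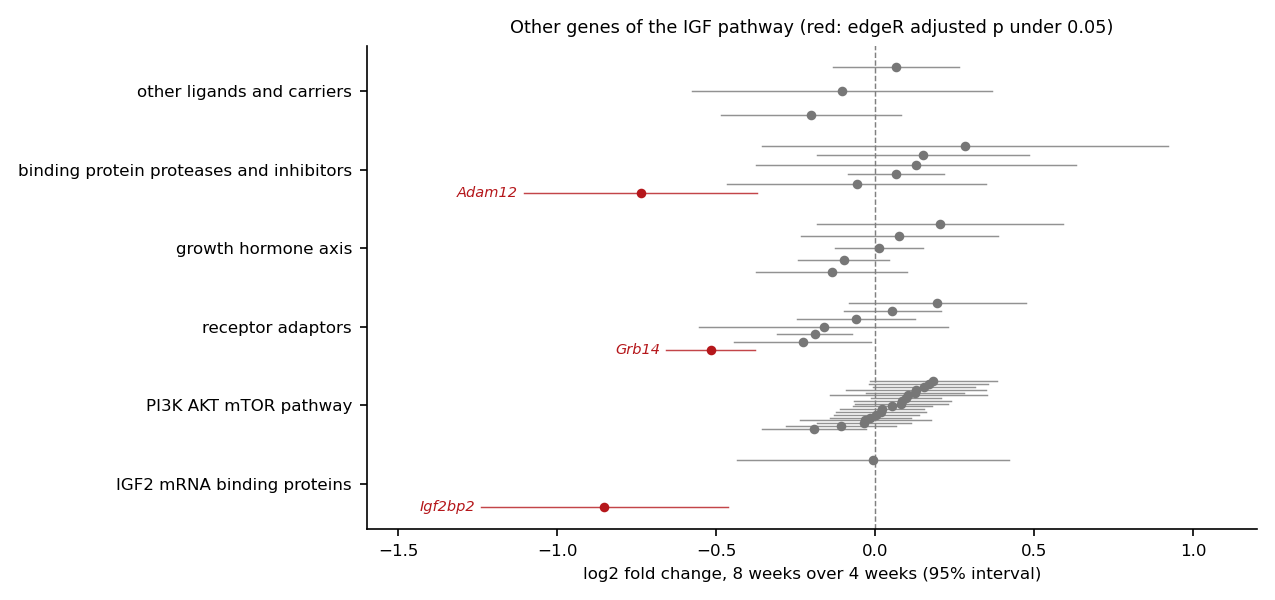
Log2 fold change of 8 over 4 weeks (horizontal axis, points) with its 95% interval (lines) for the 41 tested genes of 6 IGF pathway lists; red and a name mark an edgeR adjusted p under 0.05. The 3 called genes lie below 0, from -0.85 (Igf2bp2) to -0.52 (Grb14).

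In the lists without a called gene the smallest p belonged to Igfbp7, a low-affinity IGF binder of vessel walls, among other ligands and carriers (-0.20, SE 0.13, edgeR adjusted p = 0.417). Among 5 genes of the growth hormone axis it was Stat5b, a transcription factor downstream of the growth hormone receptor (-0.10, SE 0.07, edgeR adjusted p = 0.435). Among 18 genes of the PI3K, AKT and mTOR pathway, which carries the receptor's signal, edgeR called 0 (1 at an unadjusted p under 0.05, as had 3263 of all 15540 tested genes), 13 had positive values and the smallest p was that of the kinase gene Akt2 (-0.19, SE 0.08, edgeR adjusted p = 0.153). Igf2, the second ligand, averaged 117 ± 50.8 CPM at 8 weeks (SD, n = 6) and 126 ± 30.2 CPM at 4 weeks (SD, n = 4), with a log2 fold change of -0.10 (SE 0.22, edgeR adjusted p = 0.837). Within males 2 pathway genes fell (Grb14 and Adam12, -1.12, SE 0.20, edgeR adjusted p = 0.0127), where 2.39% of tested genes did, and within females 1 fell (Grb14), where 1.22% did. No pathway gene passed edgeR's test between the sexes, where 7 of 41 had an unadjusted p under 0.05 beside 7.36% of all tested genes, or for the difference of the age changes between the sexes, where 4 of 41 did beside 4.82%.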

How the data were processed

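RNA of mouse spinal cord was sequenced in 10 libraries of 4 groups by sex and age. The authors deposited raw read counts per gene, with no normalization. Per the submitters' processing notes, the tools were TopHat2 2.1.0 and featureCounts and the build was mm9. The sources used here do not give the counting options, the strand setting or the annotation version. Symbols came from RefSeq (GRCm38.p6) by identifier, promoter sequences from RefSeq in the same build, with all 8 members matched, and lengths from GENCODE M21, since no mm9 annotation was used here.

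The count test was that of edgeR 4.0.16 (R 4.3.3), after TMM scaling. Its filterByExpr, set to a count of 10 and a total of 15, kept 15540 genes. The quasi-likelihood F test was 2-sided, and p-values were adjusted over all these genes by Benjamini-Hochberg at 0.05. An additive model of age and sex gave the age and the sex comparison. A model with 4 group means, sharing 1 estimate of spread, gave age within each sex and the interaction. An SE is the absolute log2 fold change over the square root of F. DESeq2 1.42.0, limma 3.58.1 (voom), no filter, covariates and left-out libraries were alternatives. The long-transcript covariate, and in the sex comparison the left-out pairs of libraries and the meningeal covariate, were chosen after seeing the data. Log2 CPM for scores and likeness used a prior count of 2. Correlations were tested by permutation, with ranks and the adjustment of p-values from SciPy 1.17.1. The edgeR fit for age over both sexes was tested on simulated counts. Library totals ran from 8453559 to 11594610 counts, so 1 CPM is close to 10 counts. Replicates were compared in pairs, and chi-square over degrees of freedom was 1.94 to 11.6, above sampling noise.

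The members, the pathway and marker lists and the rules were chosen with earlier results of these data known. Named were all 8 members, the 3 genes most like each by Pearson's r (mean log2 CPM of at least 2) on levels and on residuals, and, of each pathway list, the genes called for age or else the gene with the lowest p. Igf2 was added after its values were seen. Some genes that this rule names are not reported here.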

Additional observations from a re-analysis of the deposited data

How the results depend on the processing

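Values are log2 fold changes or counts of genes. Igfbp5 kept its direction for age and sex in every alternative run, and its age call with DESeq2 size factors, DESeq2, limma-voom, no filter, at least 1 CPM in 4 libraries, the average of the male and female contrasts and the long-transcript score. It lost the call, as given above, without 2 single libraries, without either pair of libraries and with the muscle or meningeal score. Under each of the last 4, members called for age numbered 0. The fit without both male 4-week libraries takes age from female libraries alone. Genes called for age, 1028 with all libraries, numbered 474 without male 8-week libraries 2 and 3, 393 without both male 4-week libraries, 30 with the muscle score and 382 with the meningeal score, and pathway genes called numbered 1, 1, 0 and 2. Genes called between the sexes, 14 with all libraries, numbered 35 with DESeq2, 60 without a filter, 9 without both male 4-week libraries, 29 with the meningeal score and 23 with the long-transcript score. Members called between the sexes numbered 1 with DESeq2 and 1 without a filter. Without a filter 340 genes, against 226, were called for age in females. The cause of these shifts was not tested.

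Leaving out 1 library at a time, with a lone library of a group assumed to vary like the others, gave 719 to 1473 genes called for age, 0 to 1 members and 2 to 5 pathway genes. It gave 188 to 1199 genes and 0 to 1 members for age in males, 62 to 394 genes for age in females, 10 to 28 genes and 0 to 1 members between the sexes and 1 to 2 genes for the interaction. Uncalled members changed sign. For age over both sexes Igfbp2 ran from -0.10 to 0.18 and Igfbp4 from -0.16 to 0.11. For age in males Igf2r ran from -0.033 to 0.33, Igfbp2 from -0.13 to 0.42, Igfbp4 from -0.26 to 0.46 and Igfbp6 from -0.47 to 0.49. For age in females Igf1 ran from -0.20 to 0.20, Igf2r from -0.049 to 0.25 and Igfbp2 from -0.32 to 0.22. Between the sexes Igf1 ran from -0.083 to 0.21, Igf2r from -0.084 to 0.027 and Igfbp4 from -0.034 to 0.18. For the interaction Igf1r ran from -0.25 to 0.18, Igf2r from -0.12 to 0.25, Igfbp2 from -0.062 to 0.49, Igfbp3 from -0.37 to 0.14, Igfbp4 from -0.17 to 0.55 and Igfbp6 from -0.11 to 0.85.

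Other settings turned the sign of uncalled age values. With the muscle score, which had an r of -0.93 with age, Igf1 was 0.57, Igf1r -0.58, Igf2r -0.40, Igfbp3 0.63, Igfbp4 0.89, Igfbp6 1.82 and Igfbp7 0.40. With the meningeal score Igf1 was 0.13, Igf2r -0.078, Igfbp3 0.18, Igfbp4 0.17, Igfbp6 0.50 and Igfbp7 0.025. With the long-transcript score Igf2r was -0.010, Igfbp4 0.16, Igfbp6 0.21 and Igfbp7 0.00045. Without both male 4-week libraries, where age is read from females alone, Igf1 was 0.014 and Igfbp2 -0.074. Without male 8-week libraries 2 and 3 Igfbp6 was 0.0038, and with limma-voom Igfbp4 was 0.0044.

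Whether replicate numbers pair the libraries was not settled, since pairs with different numbers were not compared. Of 13 pairs with the same number, 5 had a correlation of deviations over 0.1, and the 13 ran from -0.21 to 0.24. In groups of 2 libraries the deviations mirror each other, so the 4-week groups give the same value, 0.21, for both numbers. With the replicate number as a block, 38 genes and 1 member (Igfbp5, edgeR adjusted p = 0.0291) were called between the sexes. For age the block gave Igfbp5 0.37 (edgeR adjusted p = 0.0134), Igfbp4 0.051, Igfbp6 0.089 and Adam12 -0.74 (edgeR adjusted p = 0.0507), for age in males Igfbp6 0.24 and for age in females Igfbp2 0.15.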
